A study of Mus musculus with 16 samples.

Results

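Integrins, laminins and collagens carry the attachment of an epithelium to its matrix. Their genes were taken from the count table by symbol, as the numbered integrin α (Itga), integrin β (Itgb), laminin (Lama, Lamb, Lamc) and collagen (Col) chains, leaving out Itgb2, Itgb6 and Itgb8 and requiring at least 10 counts over all libraries. Of 54392 symbols, 75 matched these names, 3 were left out by name, 21 held under 10 counts and 51 were members. The members were 12 integrin α chains, 5 integrin β chains, 8 laminin chains and 26 collagen chains. RNA-seq libraries had been made from material labelled as colonocytes, the lining cells of the colon, of C57BL/6 mice. Of these, 7 libraries came from mice given fish oil/pectin, a source of n-3 fatty acids and fermentable fibre, and 9 from mice given corn oil/cellulose, a source of n-6 fatty acids and poorly fermented fibre. Both diets lasted 3 weeks, and the labels give no age, sex, genetic change or other agent. Fat and fibre change together between these diets, so their parts in a difference cannot be told apart.

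Library totals ran from 16212831 to 19512755 counts with fish oil/pectin and from 13996288 to 19331984 counts with corn oil/cellulose. The names of 10 libraries, 5 of each diet, start with GC, and those of 6, 2 fish oil/pectin and 4 corn oil/cellulose, lack it. The 6 names that lack it end in A or Q, with either letter in both diets, and were taken as 1 form. The name form, with or without GC, was a term of the model, and the labels do not state its meaning. Over 4 Y-linked genes, 9 libraries held at least 2710 counts and 7 held at most 3. The 9 were 1 of 5 fish oil/pectin and 2 of 5 corn oil/cellulose libraries of the GC form, and all 6 of the others, so name form and sex are partly confounded. Fish oil/pectin libraries 6 and 7 were singled out in an earlier analysis of these data, and the counts of called members were repeated without them. Summed over 10 epithelial markers, among them Epcam and Krt8, the level was 15114 to 26936 CPM with fish oil/pectin and 15071 to 19026 CPM with corn oil/cellulose (CPM, read counts scaled for library size by the trimmed mean of M-values). Fibroblast markers summed to 12.6 to 30.1 CPM with fish oil/pectin and 9.44 to 29.0 CPM with corn oil/cellulose, and smooth muscle markers to 0.129 to 0.552 CPM and 0.179 to 0.684 CPM. Pan-leukocyte markers summed to 15.2 to 24.2 CPM and 13.0 to 85.8 CPM in these diets, and T and NK cell markers to 15.8 to 53.3 CPM and 14.2 to 92.0 CPM. The epithelial sum was far above each of these, so the epithelial label held, with some leukocyte RNA present.

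Integrins are receptors of 1 α and 1 β chain, and the pairing sets which matrix protein is bound. Laminins are trimers of an α, a β and a γ chain that form the sheet of the basement membrane together with type IV collagen. In gut epithelium, integrin α6β4 binds laminin and is tied through plectin to keratin filaments at hemidesmosomes, while β1 integrins bind laminin and collagen at contacts linked to actin. Fibrillar collagens are made mainly by fibroblasts of the tissue underneath.

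Levels of different chains were compared as mean CPM per kb of exon. The highest was that of Itgb1, the common β chain, at 73.4 CPM per kb with fish oil/pectin and 77.4 CPM per kb with corn oil/cellulose. Itgb4 stood at 36.5 and 48.5 CPM per kb in these diets, and the laminin β chain Lamb3 at 35.6 and 36.4 CPM per kb. The laminin-binding α chains followed, Itga3 at 33.3 and 35.8 CPM per kb and Itga6 at 28.7 and 33.4 CPM per kb. Over all libraries these 5 chains led the order, and 18 of the 51 members exceeded 1 CPM per kb. The α partner of Lamb3, Lama3, lay lower, at 2.70 CPM per kb with fish oil/pectin and 4.42 CPM per kb with corn oil/cellulose. Collagens made up most of the low end, and the highest of them was Col16a1 at 4.45 CPM per kb with fish oil/pectin and 5.74 with corn oil/cellulose. The fibrillar chains Col1a1, Col1a2 and Col3a1 held 43, 40 and 68 counts over all 16 libraries. The 21 matching symbols under 10 counts were 18 collagens and the laminin chains Lama1, Lama2 and Lamc3, which held 0 counts each.

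**Figure D1:**
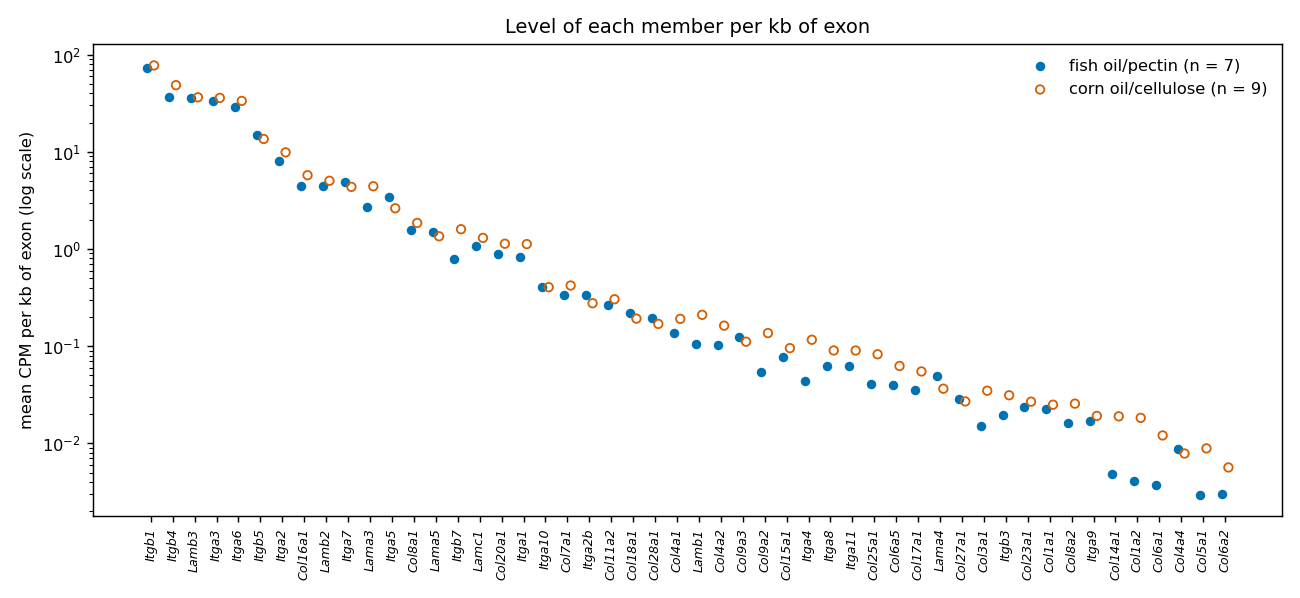
Mean CPM per kb of exon (log scale) of 50 members in fish oil/pectin (filled, n = 7) and corn oil/cellulose (open, n = 9) libraries, in order of the mean over all libraries. Itgb1, Itgb4, Lamb3, Itga3 and Itga6 lead, and most of the lowest points are collagens.

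With fish oil/pectin, 10 members were lower and 1 was higher at an adjusted p under 0.05 (edgeR quasi-likelihood test, Benjamini-Hochberg over 14321 genes). Over all genes tested, 41.7% passed, 21.7% higher and 20.1% lower. The 11 members were 30.6% of the 36 tested, below that background, with 2.78% higher and 27.8% lower. With scaling by total counts alone, 15.7% of all genes were higher and 26.4% lower. By family, Itga5 was higher and Itga1 and Itga4 lower among 11 integrin α chains, and Itgb4 and Itgb7 were lower among 4 integrin β chains. Among 8 laminin chains 4 were lower, including Lama3, Lamb1 and Lamc1, and among 13 collagens Col16a1 and Col25a1 were lower. The median log2 fold change of the 36 members was -0.25, against -0.0043 over all genes, and 27 of the 36 values were below 0. Family medians were -0.18 for integrin α, -0.23 for integrin β, -0.22 for laminin and -0.34 for collagen chains. The other 15 members, 13 of them collagens, held 10 to 98 counts each and did not pass the filter on low counts.

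Without fish oil/pectin libraries 6 and 7, 8 members were lower and 0 higher in the same edgeR test (0 higher at an unadjusted p under 0.05, and 0 by DESeq2). Of all genes, 30.4% were called in that fit, 15.1% lower and 15.2% higher. Members had long transcripts, with a median exon length of 7018 bases against 4106 bases for all tested genes. The 3332 other genes within the quartiles of the members' lengths, 5387 to 9122 bases, had a median log2 fold change of -0.11. With each library's trend on exon length removed, 6 members were lower and 2 higher, and 33.1% of all genes were called. Of all genes, 12.2% were then lower and 20.8% higher, against 20.1% and 21.7% before. Genes of the lists below are given without this removal, and the part of exon length in their values was not tested.

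**Figure D2:**
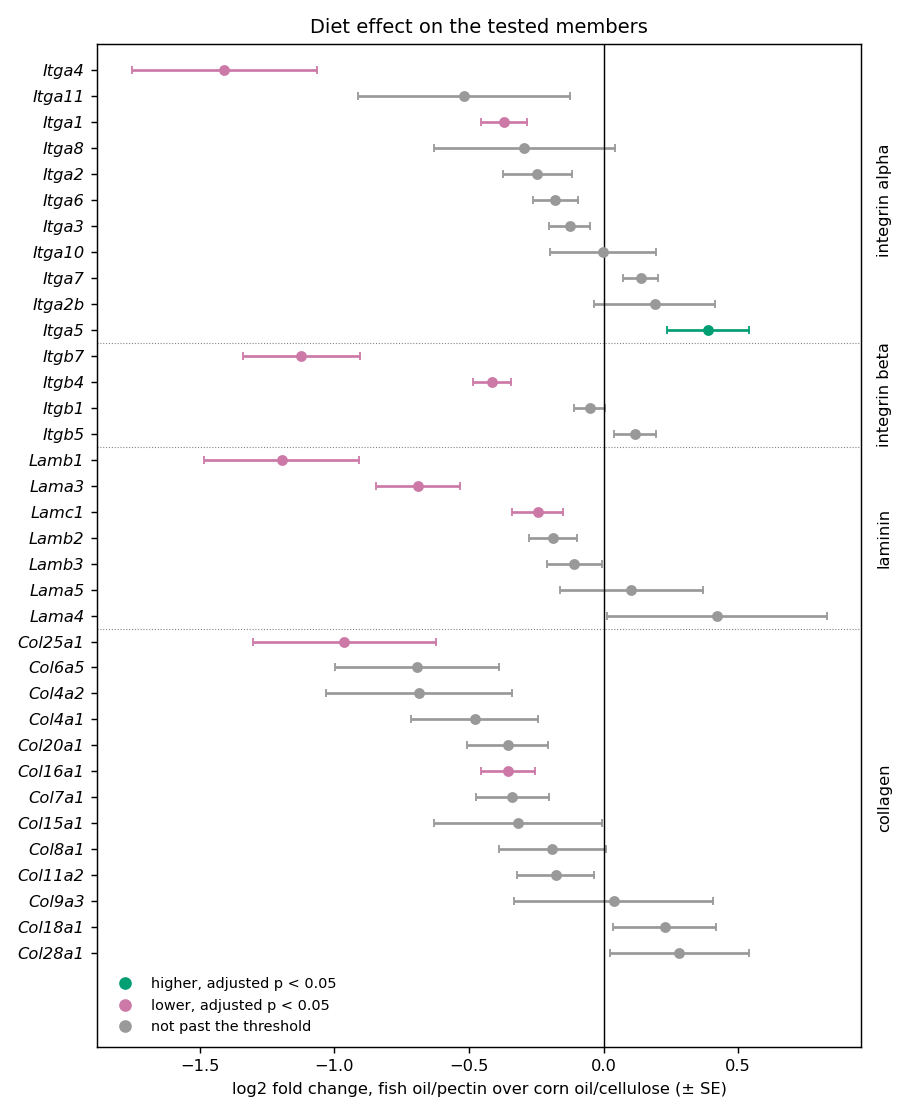
Log2 fold change, fish oil/pectin over corn oil/cellulose, with its SE for 35 tested members, by family. Most points lie below 0, and the values run from -1.41 for Itga4 to 0.42 for Lama4.

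Among the laminins, Lama3, the α chain of the epithelial laminin bound at hemidesmosomes, fell with fish oil/pectin. Lama3 (ENSMUSG00000024421.16, chromosome 18) had a lowest, median and highest level of 16.2, 30.7 and 37.2 CPM with fish oil/pectin, against 35.1, 48.7 and 59.7 CPM with corn oil/cellulose. The ranges overlapped only between 35.1 and 37.2 CPM. Lama3 was at 0.620 times its corn oil/cellulose level (log2 fold change -0.69 ± 0.16, SE, edgeR adjusted p = 0.00266). The effect was -0.68 in GC-named libraries and -0.71 in the others, and the call held in all 33 other settings, with adjusted p of at most 0.0371.

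Lamb3, the β chain of the same laminin (ENSMUSG00000026639.18, GRCm38 chr1:193207699-193343878, plus strand), had 155, 237 and 325 CPM with fish oil/pectin and 185, 240 and 278 CPM with corn oil/cellulose. Its fish oil/pectin values extended both below and above those of corn oil/cellulose, and it did not pass the test (log2 fold change -0.11 ± 0.10, adjusted p = 0.420). In GC-named libraries the fish oil/pectin range was 215 to 325 CPM and the corn oil/cellulose range 224 to 278 CPM. In the others the ranges were 155 to 179 CPM with fish oil/pectin and 185 to 264 CPM with corn oil/cellulose.

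Lama3 was then compared with Lamb3 within each library, which removes any scaling between libraries. Log2 Lama3/Lamb3 was -3.02 ± 0.46 with fish oil/pectin and -2.36 ± 0.30 with corn oil/cellulose (SD, n = 7 and 9). The difference within name forms was -0.58 (two-sided exact permutation, p = 0.000265, the smallest that 3780 arrangements gave, adjusted p = 0.00132 over 5 ratios). It was -0.73 in GC-named libraries (exact p = 0.00794) and -0.29 in the others (exact p = 0.0667, the smallest possible there). The difference thus had the same sign in either form. The ratios were added after earlier results were known.

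Both chains also varied together among libraries of the same diet and name form. Taking deviations from those means (n = 16 libraries, p-values adjusted over 6 pairs of chains), Lama3 and Lamb3 had Pearson r = 0.70 (permutation, adjusted p = 0.0190) and Spearman rho = 0.70 (permutation, adjusted p = 0.0192). Without the 2 libraries farthest from the median, fish oil/pectin 4 and 7, r was 0.51.

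Among the other laminin chains, Lamb1, a β chain of many basement membrane laminins, had the largest decrease and a low level. Its lowest, median and highest levels (ENSMUSG00000002900.16, GRCm38 chr12:31265234-31329644, plus strand) were 0.331, 0.655 and 2.75 CPM with fish oil/pectin and 0.955, 2.05 and 3.30 CPM with corn oil/cellulose. Of the 7 fish oil/pectin libraries, 4 lay below the corn oil/cellulose range and 3 inside it. Lamb1 was at 0.437 times its corn oil/cellulose level (log2 fold change -1.20 ± 0.29, edgeR adjusted p = 0.0036), with an effect of -1.04 in GC-named libraries and -1.67 in the others. Of 33 other settings the call was lost in 1, with a replicate block (-1.22, adjusted p = 0.0502). Lamc1, the γ chain found with it in those laminins, had 7.12, 8.30 and 11.7 CPM with fish oil/pectin and 9.31, 10.8 and 12.4 CPM with corn oil/cellulose. Its log2 fold change of -0.24 ± 0.10 lay just past the threshold (adjusted p = 0.0463), and the call was lost in 20 of 33 other settings, 11 of them with a single library left out, while the value was 0.056 in a fit to the 6 libraries that lack the prefix.

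Lama5, the α chain most used in basement membranes of adult epithelia, had 7.81, 17.5 and 24.1 CPM with fish oil/pectin and 7.57, 12.8 and 31.5 CPM with corn oil/cellulose. Its ranges overlapped almost wholly (log2 fold change 0.10 ± 0.26, adjusted p = 0.781). Lamb2 averaged 26.9 ± 3.66 CPM with fish oil/pectin and 30.6 ± 3.44 CPM with corn oil/cellulose (SD, n = 7 and 9) and did not pass the test (log2 fold change -0.19 ± 0.09, adjusted p = 0.104). Lama4, a chain of vessel walls and muscle, averaged 0.592 ± 0.269 CPM with fish oil/pectin and 0.440 ± 0.276 CPM with corn oil/cellulose (log2 fold change 0.42 ± 0.41, adjusted p = 0.427).

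**Figure D3:**
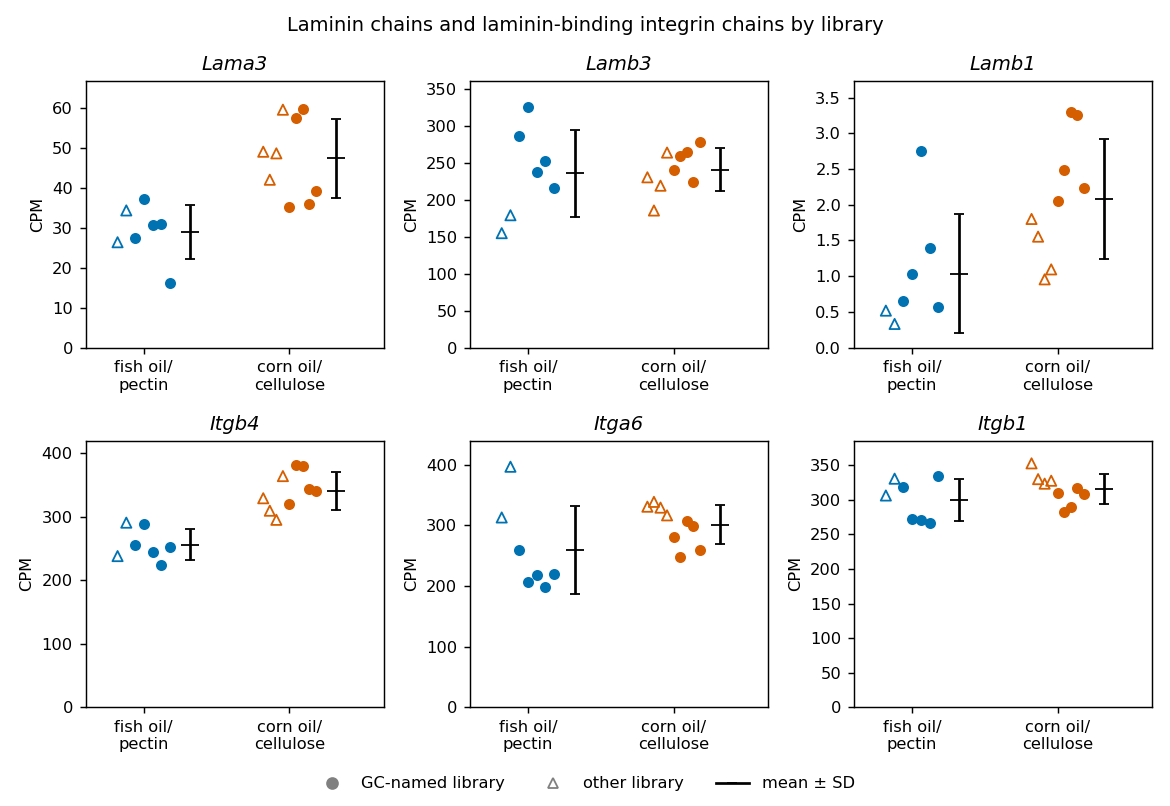
CPM by library of Lama3, Lamb3, Lamb1, Itgb4, Itga6 and Itgb1, with GC-named libraries as circles, the others as triangles, and the mean ± SD of each diet. Itgb4 is separated between diets, at 224 to 291 CPM with fish oil/pectin and 295 to 381 CPM with corn oil/cellulose, while the ranges of Lamb3 overlap.

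Promoter windows of the β chains Lamb1 and Lamb3 are shown because 1 of them fell and the other did not pass the test. They span 250 bases before to 50 after the start in RefSeq (GRCm38.p6), on the gene's strand, for Lamb1 at chr12:31265043-31265342 and for the first of 2 Lamb3 starts at chr1:193301744-193302043. Capitals mark CCAAT boxes (CCAAT or ATTGG), GC boxes (GGGCGG or CCGCCC) and AP-1 elements (TGANTCA, searched on both strands).
Lamb1: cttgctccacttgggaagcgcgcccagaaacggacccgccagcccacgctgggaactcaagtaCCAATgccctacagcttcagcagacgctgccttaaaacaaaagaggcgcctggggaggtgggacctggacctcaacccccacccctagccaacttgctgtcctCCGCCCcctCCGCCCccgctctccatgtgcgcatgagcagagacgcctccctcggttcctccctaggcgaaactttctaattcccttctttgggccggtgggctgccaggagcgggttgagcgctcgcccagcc
Lamb3: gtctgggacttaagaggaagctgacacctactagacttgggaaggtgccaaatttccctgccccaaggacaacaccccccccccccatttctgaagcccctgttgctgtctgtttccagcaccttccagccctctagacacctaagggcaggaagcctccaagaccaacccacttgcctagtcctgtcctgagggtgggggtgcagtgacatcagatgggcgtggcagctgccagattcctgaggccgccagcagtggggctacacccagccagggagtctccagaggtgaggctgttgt
The Lamb1 window held 1 CCAAT box and 2 GC boxes, and the Lamb3 window held none of the 3 motifs. The window of the β chain Lamb2, which did not pass the test, also held none. A link between these motifs and the diet effect was not tested. Over all 32851 windows, 37.4% held a CCAAT box, 35.7% a GC box and 7.81% an AP-1 element. Of 44 windows of 40 members, 10, 26 and 3 held these motifs.

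Laminin-binding integrin chains were high in both diets, and Itgb4 fell. Itgb4 (ENSMUSG00000020758.15, GRCm38 chr11:115974709-116008412, plus strand), the β chain found only in integrin α6β4, had a lowest, median and highest level of 224, 253 and 291 CPM with fish oil/pectin and 295, 341 and 381 CPM with corn oil/cellulose. No fish oil/pectin library reached the lowest corn oil/cellulose library, and Itgb4 was the only tested member without overlap, which held for 3.35% of all genes. It was at 0.750 times its corn oil/cellulose level (log2 fold change -0.42 ± 0.07, edgeR adjusted p = 0.000562). The effect was -0.48 in GC-named libraries and -0.30 in the others, and the call was lost only in the others taken alone (-0.28, adjusted p = 0.127). Of its exon bases, 7.66% overlap B230344G16Rik on the opposite strand, which held 42 counts.

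Itga6, the α partner of Itgb4, did not pass the test (log2 fold change -0.18 ± 0.08, adjusted p = 0.0923). It had 199, 220 and 397 CPM with fish oil/pectin and 248, 306 and 339 CPM with corn oil/cellulose. The high fish oil/pectin values came from the libraries without the GC prefix, at 313 and 397 CPM, where corn oil/cellulose libraries had 317 to 339 CPM. In GC-named libraries the fish oil/pectin range was 199 to 259 CPM and the corn oil/cellulose range 248 to 306 CPM, an effect of -0.34 (adjusted p = 0.00313), and the test of the difference between name forms gave an adjusted p of 0.0544. Log2 Itgb4/Itga6 differed by -0.23 between diets (exact permutation, adjusted p = 0.0278), with -0.14 in GC-named libraries (exact p = 0.230) and -0.40 in the others (exact p = 0.0667). Over deviations from diet and name form means, Itga6 and Itgb4 had r = 0.21 (permutation, adjusted p = 0.674) and rho = 0.21 (permutation, adjusted p = 0.689), with r = 0.10 without the 2 farthest libraries.

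Itgb1, the shared partner of most α chains here, had 266, 306 and 335 CPM with fish oil/pectin and 283, 317 and 353 CPM with corn oil/cellulose. The diets overlapped almost fully (log2 fold change -0.05 ± 0.06, adjusted p = 0.495). Log2 Itgb4/Itgb1 differed by -0.36 (exact permutation, adjusted p = 0.00265), with -0.43 in GC-named libraries (exact p = 0.0159) and -0.23 in the others (exact p = 0.0667), so the level of Itgb4 was lower relative to Itgb1 within libraries. Itga3, the α chain of the other main epithelial laminin receptor, had 158, 197 and 210 CPM with fish oil/pectin and 178, 200 and 260 CPM with corn oil/cellulose (log2 fold change -0.13 ± 0.08, adjusted p = 0.191). Itga7 averaged 39.3 ± 4.10 CPM with fish oil/pectin and 35.2 ± 2.68 CPM with corn oil/cellulose (log2 fold change 0.14 ± 0.06, adjusted p = 0.0913). Its exons share 9 bases with Mettl7b on the opposite strand, which held 112558 counts, so some reads may belong to that gene.

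Of 6 hemidesmosome partners outside the family that were tested, 3 fell and 2 rose, beside 20.1% of all genes lower and 21.7% higher. The trend on exon length was not removed from these values. The linkers Dst (log2 fold change -0.60 ± 0.08, adjusted p = 0.00034) and Plec (-0.50 ± 0.09, adjusted p = 0.00065) and the adaptor Erbin (-0.55 ± 0.09, adjusted p = 0.000562) were lower with fish oil/pectin. Plec, which joins Itgb4 to keratin, averaged 367 CPM with fish oil/pectin and 514 CPM with corn oil/cellulose. Krt18 (0.49 ± 0.11, adjusted p = 0.00168) and Krt8 (0.31 ± 0.08, adjusted p = 0.00484), the keratins of simple epithelia, were higher. Both are also in the epithelial marker list, whose sum was higher with fish oil/pectin (exact permutation, adjusted p = 0.0138). Krt8 (6055 CPM) and Krt19 (6520 CPM, means with fish oil/pectin) made up much of that sum. Of its markers that are not keratins, Cdx1 (0.30, edgeR adjusted p = 0.00354) and Cdx2 (0.41, adjusted p = 0.0199) were higher. Epcam (0.09), Vil1 (0.07), Elf3 (0.12) and Cdh1 (-0.13) did not pass (adjusted p from 0.134 to 0.352). The part of the epithelial sum in these keratin values was not tested. These keratin effects differed between name forms, at 0.69 for Krt18 in GC-named libraries and 0.10 in the others (edgeR interaction, adjusted p = 0.0438), and at 0.45 and 0.04 for Krt8 (adjusted p = 0.0499). The epithelial sum was 21547 to 26936 CPM with fish oil/pectin and 17472 to 19026 CPM with corn oil/cellulose in GC-named libraries, and 15114 to 15480 CPM and 15071 to 15338 CPM in the others. Crypt base and stem cell markers summed to 713 to 876 CPM and 978 to 1148 CPM in GC-named libraries, and to 1190 to 1248 CPM and 1073 to 1303 CPM in the others. Over all libraries that sum did not pass (exact permutation, adjusted p = 0.0653, and 0.531 for the mean log2 CPM). Surface colonocyte markers did not pass either (exact permutation, adjusted p = 0.463). The tetraspanin Cd151 averaged 137 CPM with fish oil/pectin and 122 CPM with corn oil/cellulose (0.13 ± 0.06, adjusted p = 0.0699).

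Collagen-binding integrins pair with Itgb1. Itga1 fell, with a lowest, median and highest level of 11.8, 15.1 and 19.9 CPM with fish oil/pectin and 16.6, 19.2 and 26.1 CPM with corn oil/cellulose (log2 fold change -0.37 ± 0.08, edgeR adjusted p = 0.00266). The 5 GC-named fish oil/pectin libraries lay below the corn oil/cellulose range and the other 2 within it. Itga1 has 18599 bases of exon, and with the trend on exon length removed its log2 fold change was -0.05 (adjusted p = 0.645). Itga2 had 36.5, 51.1 and 86.4 CPM with fish oil/pectin and 56.7, 63.4 and 97.0 CPM with corn oil/cellulose, and did not pass the test (log2 fold change -0.25 ± 0.13, adjusted p = 0.134). Its 2 fish oil/pectin libraries without the GC prefix had 79.4 and 86.4 CPM, above the 36.5 to 60.4 CPM of the GC-named ones. The Itga2 effect was -0.42 in GC-named libraries (edgeR adjusted p = 0.0347) and 0.06 in the others, a difference that did not pass (adjusted p = 0.256). Itga10 averaged 2.11 ± 0.67 CPM with fish oil/pectin and 2.10 ± 0.447 CPM with corn oil/cellulose, and 33.5% of its exon bases are shared with Gm42957 on the same strand. Itga11 averaged 0.320 ± 0.158 CPM with fish oil/pectin and 0.463 ± 0.245 CPM with corn oil/cellulose (log2 fold change -0.52 ± 0.39, adjusted p = 0.305).

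Integrins that bind fibronectin and vitronectin through an RGD motif gave the only increase called over all libraries. Itga5, the fibronectin receptor chain, had 11.5, 15.5 and 25.9 CPM with fish oil/pectin and 9.63, 12.0 and 16.8 CPM with corn oil/cellulose (log2 fold change 0.39 ± 0.15, edgeR adjusted p = 0.0481). The ranges overlapped broadly, and the call was lost in 23 of 33 other settings, 11 of them with a single library left out, such as fish oil/pectin library 7 (0.26, adjusted p = 0.115). Itgb5 averaged 53.3 ± 8.78 CPM with fish oil/pectin and 48.1 ± 2.72 CPM with corn oil/cellulose (log2 fold change 0.12 ± 0.08, adjusted p = 0.237). The Itgb5 effect was 0.24 in GC-named libraries (edgeR adjusted p = 0.0207) and -0.13 in the others, a difference that did not pass (adjusted p = 0.102). Itgav, its partner, has no number in its symbol and is no member. It fell to 21.4 ± 5.52 CPM with fish oil/pectin, against 27.9 ± 4.15 CPM with corn oil/cellulose (log2 fold change -0.33 ± 0.09, adjusted p = 0.00572). Itga8 averaged 0.465 ± 0.319 CPM with fish oil/pectin and 0.665 ± 0.392 CPM with corn oil/cellulose (log2 fold change -0.29 ± 0.34, adjusted p = 0.506). Itgb3, and outside this group Itga9, held 41 and 37 counts and did not pass the filter on low counts.

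Both integrin chains of leukocytes among the members fell, Itga4 by more than any other called member, and 2 of 4 lists of leukocyte markers were lower with them. Itga4 and Itgb7 together form the gut-homing receptor of lymphocytes. Itgb7 (ENSMUSG00000001281.10, GRCm38 chr15:102215995-102231944, minus strand) had 0.607, 2.38 and 3.44 CPM with fish oil/pectin and 0.890, 4.44 and 8.57 CPM with corn oil/cellulose. It was at 0.459 times its corn oil/cellulose level (log2 fold change -1.12 ± 0.22, edgeR adjusted p = 0.000986). The call was lost in 5 of 33 other settings, among them the replicate block (-0.82, adjusted p = 0.0543), no term for name form (-1.02, adjusted p = 0.117) and the stromal marker score (-0.71, adjusted p = 0.0876). Itga4 (ENSMUSG00000027009.18, GRCm38 chr2:79255426-79333123, plus strand) had 0.459, 0.607 and 0.793 CPM with fish oil/pectin and 0.239, 1.74 and 4.16 CPM with corn oil/cellulose. It was at 0.377 times its corn oil/cellulose level (log2 fold change -1.41 ± 0.34, edgeR adjusted p = 0.00386), and 8.04% of its exon bases overlap Cerkl on the opposite strand, which held 88 counts.

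Both chains were split by name form. In GC-named libraries Itga4 had 0.459 to 0.793 CPM with fish oil/pectin and 1.74 to 4.16 CPM with corn oil/cellulose, and Itgb7 had 2.01 to 3.44 CPM and 4.44 to 8.57 CPM. In the others Itga4 had 0.607 to 0.690 CPM with fish oil/pectin and 0.239 to 0.805 CPM with corn oil/cellulose, and Itgb7 had 0.607 to 1.32 CPM and 0.890 to 1.38 CPM. So the diets were separate in the GC-named libraries and overlapped in the others. For Itga4 the effects were -2.04 and 0.17, a difference of -2.21 that passed the test (edgeR interaction, adjusted p = 0.0329), as did 8.41% of all genes. The interaction call was lost when fish oil/pectin library 1 or 2 was left out (adjusted p = 0.122 and 0.178), and likewise for corn oil/cellulose library 3 or 4 (adjusted p = 0.0617 and 0.0572). With any 1 library left out, the difference lay between -2.43 and -1.93. Without fish oil/pectin library 1 or 2, a single library is left in that arm and is assumed to vary like the other groups. For Itgb7 the effects were -1.40 and -0.24, and their difference of -1.16 did not pass (adjusted p = 0.109).

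Markers of all leukocytes, 6 genes including Ptprc and each with counts, summed to 15.2 to 24.2 CPM with fish oil/pectin and 48.9 to 85.8 CPM with corn oil/cellulose in GC-named libraries, and to 15.4 to 15.5 CPM and 13.0 to 15.9 CPM in the others. Over all libraries this difference had an adjusted p of 0.0241 (exact permutation over 13 marker lists). T and NK cell markers, 12 genes, summed to 23.7 to 53.3 CPM with fish oil/pectin and 42.3 to 92.0 CPM with corn oil/cellulose in GC-named libraries, and to 15.8 to 20.9 CPM and 14.2 to 21.5 CPM in the others. Over all libraries this difference had an adjusted p of 0.0413 (exact permutation). Macrophage and myeloid markers, 10 genes, summed to 46.3 to 88.0 CPM with fish oil/pectin and 40.6 to 53.5 CPM with corn oil/cellulose (exact permutation, adjusted p = 0.128). Most of this sum was Cd14, which averaged 47.5 and 37.9 CPM in these diets and rose (log2 fold change 0.35, edgeR adjusted p = 0.0292). Lyz2 fell (-0.90, adjusted p = 0.00269), and Cd68 (-0.35), Csf1r (-0.34), Mrc1 (-0.15) and C1qa (0.10) did not pass. The mean log2 CPM of the list differed by -0.096 (exact permutation, adjusted p = 0.531). B and plasma cell markers, 7 genes, summed to 0.162 to 0.861 CPM with fish oil/pectin and 0.190 to 1.60 CPM with corn oil/cellulose (exact permutation, adjusted p = 0.885). In such libraries fewer cells of a type and less RNA per cell cannot be told apart. With a leukocyte marker score as a covariate, the log2 fold change was -0.46 for Itga4 (adjusted p = 0.522) and -0.29 for Itgb7 (adjusted p = 0.501), and 7.19% of all genes were called. With the same covariate Lama3, Lamb1 and Itgb4 were among those that still passed, at -0.93, -1.96 and -0.35 (adjusted p up to 0.0483).

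**Figure D4:**
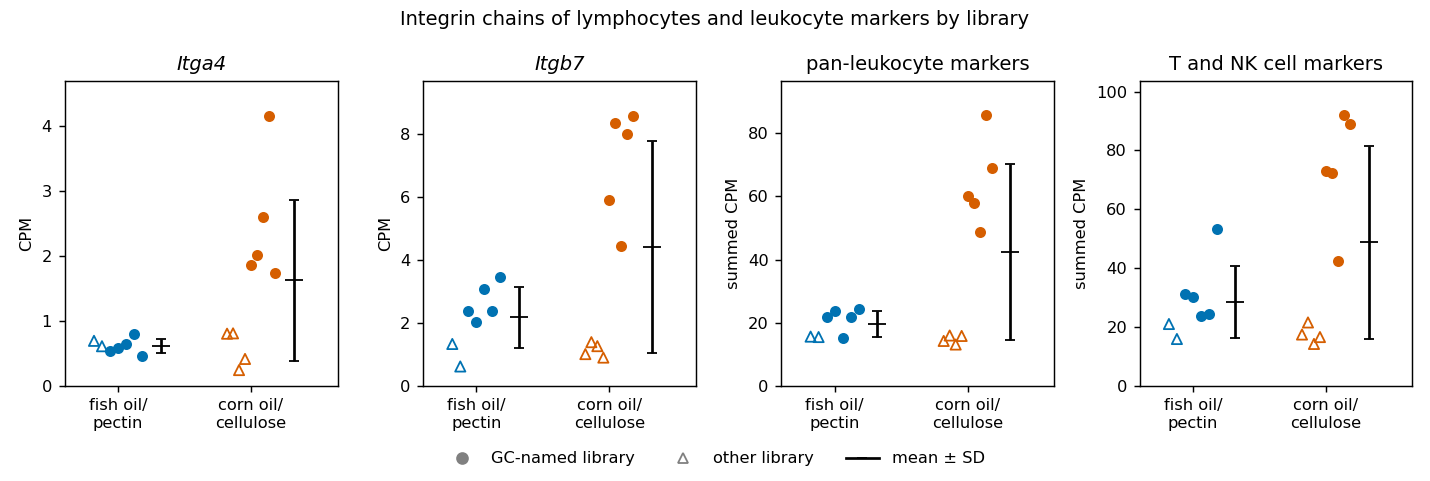
CPM by library of Itga4 and Itgb7, and summed CPM of pan-leukocyte and of T and NK cell markers, with GC-named libraries as circles, the others as triangles, and the mean ± SD of each diet. In each panel the highest value is a GC-named corn oil/cellulose library, and the triangles of both diets lie close together.

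Of 5 leukocyte integrin chains tested whose symbols carry letters in place of numbers, 3 fell, beside 20.1% of all genes lower. Itgae, the partner of Itgb7 in lymphocytes within the epithelium, averaged 3.12 ± 0.498 CPM with fish oil/pectin and 6.87 ± 3.73 CPM with corn oil/cellulose (log2 fold change -1.11 ± 0.25, adjusted p = 0.00275). Its effects were -1.73 in GC-named libraries and 0.07 in the others (adjusted p of the difference 0.0124). Itgal (-1.18 ± 0.28, adjusted p = 0.00336) and Itgax (-0.90 ± 0.33, adjusted p = 0.0344) were the other two, and for Itgal the effects were -1.81 in GC-named libraries and 0.28 in the others (adjusted p of the difference 0.0136). Within diets and name forms, Itga4 and Itgb7 had r = -0.02 (permutation, adjusted p = 0.946) and rho = -0.10 (permutation, adjusted p = 0.705, n = 16 libraries), and r was -0.14 without the 2 farthest libraries. Itga2b, the α chain of platelets, averaged 1.81 ± 0.423 CPM with fish oil/pectin and 1.51 ± 0.677 CPM with corn oil/cellulose (log2 fold change 0.19 ± 0.22, adjusted p = 0.520), beside platelet markers that summed to 0.441 to 1.88 CPM and 0.496 to 1.73 CPM.

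Of 26 collagens 13 passed the filter on low counts, and 2 of these fell, beside 20.1% of all genes lower. Col16a1 (ENSMUSG00000040690.15, GRCm38 chr4:130047840-130099283, plus strand), a collagen found beside fibrils, had 19.5, 31.3 and 34.3 CPM with fish oil/pectin and 31.0, 39.7 and 44.8 CPM with corn oil/cellulose. The ranges overlapped from 31.0 to 34.3 CPM (log2 fold change -0.36 ± 0.10, edgeR adjusted p = 0.00943), and the call was lost in 5 of 33 other settings, such as that with a stromal marker score as a covariate (-0.28, adjusted p = 0.146). Col25a1, a membrane-bound collagen, had 0.0647, 0.459 and 0.920 CPM with fish oil/pectin and 0.593, 0.821 and 2.00 CPM with corn oil/cellulose (log2 fold change -0.96 ± 0.34, edgeR adjusted p = 0.0305). Its call was lost in 12 of 32 other settings, 5 of them with a single library left out. Markers of pericytes, 1 of 6 without a count, summed to 11.4 to 15.3 CPM with fish oil/pectin and 12.1 to 21.4 CPM with corn oil/cellulose (exact permutation, adjusted p = 0.0413). Among them Pdgfrb fell (log2 fold change -0.56, adjusted p = 0.00449), Cspg4 (0.45, adjusted p = 0.193) and Notch3 (0.35, adjusted p = 0.368) did not pass, and the mean log2 CPM of the list gave an adjusted p of 0.382 (exact permutation). Those of enteric glia, 2 of 5 without a count, summed to 0.804 to 1.73 CPM with fish oil/pectin and 1.55 to 2.82 CPM with corn oil/cellulose (exact permutation, adjusted p = 0.0103, and 0.0507 for the mean log2 CPM). With a stromal marker score as a covariate Lama3 (-0.77), Lamb1 (-1.37), Itgb4 (-0.43) and Itga1 (-0.36) were among the members that passed (adjusted p up to 0.0469), and no collagen did.

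Among the collagens that did not pass, Col7a1, which forms anchoring fibrils under the basement membrane, averaged 3.42 ± 0.563 CPM with fish oil/pectin and 4.33 ± 0.737 CPM with corn oil/cellulose (log2 fold change -0.34 ± 0.14, adjusted p = 0.0538). Col20a1 averaged 4.59 ± 0.606 CPM and 5.82 ± 1.60 CPM in these diets (-0.36 ± 0.15, adjusted p = 0.0663), and Col6a5 0.371 ± 0.147 CPM and 0.588 ± 0.224 CPM (-0.69 ± 0.31, adjusted p = 0.0753). The Col20a1 effect was -0.63 in GC-named libraries (edgeR adjusted p = 0.00361) and 0.15 in the others, a difference that did not pass (adjusted p = 0.0764). Col17a1, the transmembrane collagen of hemidesmosomes, held 76 counts in all, at 0 to 0.397 CPM with fish oil/pectin and 0.160 to 0.657 CPM with corn oil/cellulose, and did not pass the filter. The values of log2 fold change among the 11 collagens tested and not called ran from -0.69 to 0.28. In the fit with no filter on low counts, 18.4% of all genes were called, 9.01% lower and 9.41% higher. Of the 15 members that the filter had left out, 0 were higher and 2 were lower. These were Col1a2 (log2 fold change -2.26 ± 0.73, adjusted p = 0.0286) and Col9a2 (-1.34 ± 0.40, adjusted p = 0.0155), on 40 and 83 counts. For Col1a2, 17 of its counts came from corn oil/cellulose library 9. Col9a2 had 0.0575 to 0.298 CPM with fish oil/pectin and 0.150 to 0.683 CPM with corn oil/cellulose, and 14 of the 15 values were below 0.

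Type IV collagen is the network-forming collagen of basement membranes, and its main chains come from a pair of genes that face away from each other. Col4a1 (GRCm38 chr8:11198423-11312826, minus strand) had 0.574, 0.916 and 1.52 CPM with fish oil/pectin and 0.978, 1.31 and 2.22 CPM with corn oil/cellulose (log2 fold change -0.48 ± 0.24, adjusted p = 0.112). The Col4a1 effect was -0.72 in GC-named libraries (edgeR adjusted p = 0.0488) and -0.05 in the others, a difference that did not pass (adjusted p = 0.409). Col4a2 (GRCm38 chr8:11312805-11449287, plus strand) had 0.115, 0.701 and 1.23 CPM with fish oil/pectin and 0.460, 0.852 and 2.09 CPM with corn oil/cellulose (log2 fold change -0.69 ± 0.35, adjusted p = 0.118). Both pairs of ranges overlapped, and the chains had r = 0.52 (permutation, adjusted p = 0.119) and rho = 0.52 (permutation, adjusted p = 0.118) over deviations from diet and name form means, with r = 0.45 without the 2 farthest libraries. The RefSeq windows (GRCm38.p6) are shown because the genes start 21 bases apart and share 78 bases of window, for Col4a1 chr8:11312777-11313076 on the minus strand and for Col4a2 chr8:11312555-11312854 on the plus strand. Capitals mark the same motifs as above.
Col4a1: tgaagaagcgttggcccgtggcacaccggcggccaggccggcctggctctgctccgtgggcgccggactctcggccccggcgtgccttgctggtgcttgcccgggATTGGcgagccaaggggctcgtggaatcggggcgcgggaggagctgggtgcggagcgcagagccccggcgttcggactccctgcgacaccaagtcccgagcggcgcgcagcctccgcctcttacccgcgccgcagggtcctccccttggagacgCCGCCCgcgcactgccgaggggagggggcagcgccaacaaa
Col4a2: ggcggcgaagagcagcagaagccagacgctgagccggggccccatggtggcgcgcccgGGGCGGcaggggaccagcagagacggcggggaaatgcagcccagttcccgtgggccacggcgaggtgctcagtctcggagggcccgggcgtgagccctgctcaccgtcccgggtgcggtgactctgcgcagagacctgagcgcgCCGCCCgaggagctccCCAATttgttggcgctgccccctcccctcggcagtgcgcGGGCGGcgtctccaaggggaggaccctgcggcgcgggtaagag
Each window held 1 CCAAT box, and they held 1 and 3 GC boxes and no AP-1 element. The first exons overlap by 22 bases on opposite strands.

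Other genes of cell-matrix attachment were described from lists, without removal of the trend on exon length. Of 27 integrin activators and adaptors tested, 10 fell and 4 rose, beside 20.1% of all genes lower and 21.7% higher. The linkers Tns3 (log2 fold change -0.42 ± 0.08, adjusted p = 0.00113), Tns4 (-0.52 ± 0.12, adjusted p = 0.00218) and talin, Tln1 (-0.30 ± 0.07, adjusted p = 0.00263), were lower with fish oil/pectin. Tln1, which binds β chain tails, averaged 119 ± 11.8 CPM with fish oil/pectin and 146 ± 12.8 CPM with corn oil/cellulose. Its effect was -0.45 in GC-named libraries and -0.03 in the others, a difference that passed the test (edgeR interaction, adjusted p = 0.0268). Cib1, which binds an integrin α chain tail, was higher, at 274 ± 80.7 CPM with fish oil/pectin and 174 ± 15.6 CPM with corn oil/cellulose (0.56 ± 0.10, adjusted p = 0.00076). The median over this list was -0.10.

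Of 11 other basement membrane genes tested, 3 fell and 1 rose, beside 20.1% of all genes lower and 21.7% higher. Nid2, a nidogen that joins laminin to type IV collagen, was lower with fish oil/pectin (log2 fold change -0.38 ± 0.11, adjusted p = 0.0102), as were the proteoglycan Agrn (-0.25 ± 0.08, adjusted p = 0.0214) and Frem2 (-0.99 ± 0.39, adjusted p = 0.0462). Fbln1, also in the fibroblast list, was higher, at 5.78 ± 2.82 CPM with fish oil/pectin and 2.66 ± 0.605 CPM with corn oil/cellulose (1.04 ± 0.22, adjusted p = 0.00176). Of the 4 fibroblast markers tested, Thy1 (-1.09 ± 0.33, adjusted p = 0.0134) and Fn1 (-0.94 ± 0.37, adjusted p = 0.0480) were lower, and the median of the 4 was -0.58. The Thy1 effect was -1.69 in GC-named libraries and 0.47 in the others (edgeR interaction, adjusted p = 0.0248). The leukocyte marker Ptprc had effects of -1.99 and 0.08 in these name forms, and whether Thy1 reads came from fibroblasts or leukocytes was not tested. Thy1 is also part of the stromal marker score, so that score may not measure stromal RNA alone. The summed level of all 11 fibroblast markers did not pass the test (exact permutation, adjusted p = 0.595).

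Of 14 other matrix receptors tested, 4 rose and 1 fell. Over all genes 21.7% were higher and 20.1% lower, the background of each list in this paragraph. Rpsa, a ribosomal protein also known as a laminin receptor, averaged 823 ± 178 CPM with fish oil/pectin and 549 ± 50.7 CPM with corn oil/cellulose (log2 fold change 0.53 ± 0.10, adjusted p = 0.000858), and ribosomal pseudogenes make its read counts uncertain. Its effect was 0.72 in GC-named libraries and 0.14 in the others (edgeR interaction, adjusted p = 0.0348). The tetraspanins Cd81 (0.42 ± 0.08, adjusted p = 0.00103) and Tspan8 (0.27 ± 0.08, adjusted p = 0.0155) were higher and Lrp1 (-0.26 ± 0.10, adjusted p = 0.0425) was lower. Of 15 genes for collagen folding and processing, 2 rose and 2 fell. The general folding enzymes Ppib (0.45 ± 0.09, adjusted p = 0.00096) and P4hb (0.34 ± 0.08, adjusted p = 0.00321) were higher, and Sec23a (-0.23 ± 0.07, adjusted p = 0.0145) and the lysyl hydroxylase Plod2 (-0.72 ± 0.25, adjusted p = 0.0283) were lower. Of 11 matrix proteases and inhibitors, 3 rose and 1 fell. Mmp7 averaged 2.98 ± 2.18 CPM with fish oil/pectin and 1.32 ± 0.563 CPM with corn oil/cellulose (1.04 ± 0.37, adjusted p = 0.0330), Mmp14 (0.21 ± 0.07, adjusted p = 0.0258) and Adam15 (0.21 ± 0.08, adjusted p = 0.0373) were higher, and Adam9 (-0.21 ± 0.06, adjusted p = 0.0131) was lower.

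Effects within each name form were taken from 1 joint fit. In GC-named libraries 15 members passed, against 45% of all genes, with a median of -0.36 and 27 of 36 values below 0. In the other libraries 0 members and 0 of 14321 genes passed in edgeR, with a median of -0.11 and 22 of 36 values below 0. At an unadjusted p under 0.05 there were 6 of 36 members in edgeR, against 16.7% of all genes, and 6 of 36 passed the adjusted threshold with limma voom, against 12.2% of all genes. When those 6 libraries were fitted alone, Lama3 (-0.70, adjusted p = 0.0342) and Lamb1 (-1.67, adjusted p = 0.0437) were lower. In that fit 6.36% of all genes were called, 2.02% lower and 4.34% higher. Lama3 had -0.68 in GC-named libraries and -0.71 in the others. Of the 36 members, the test of the difference between forms called Itga4 alone.

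**Figure D5:**
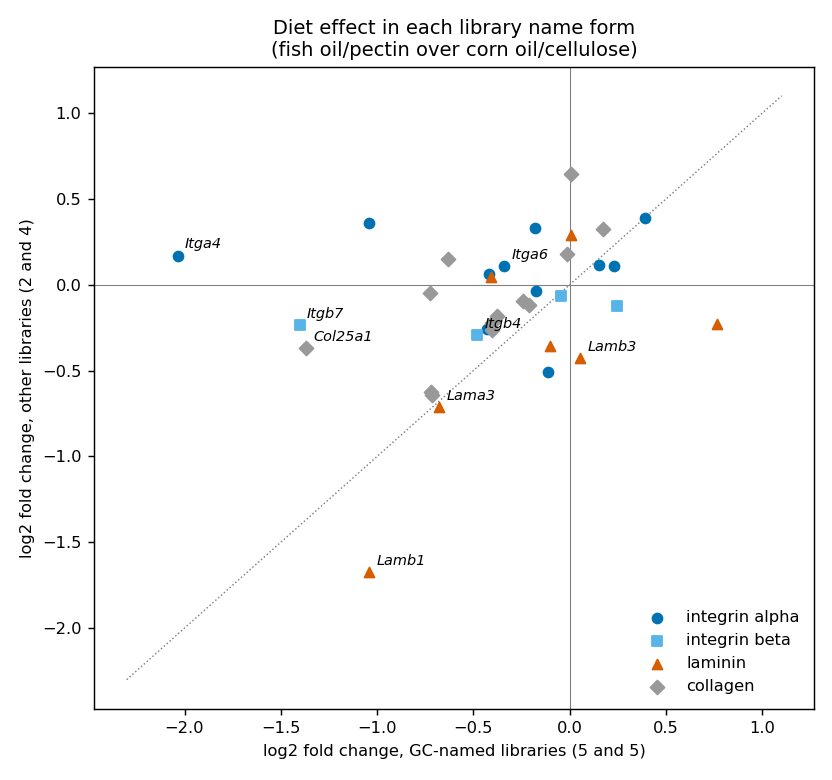
Log2 fold change, fish oil/pectin over corn oil/cellulose, of 35 tested members in GC-named libraries (horizontal, 5 and 5 libraries) and in the others (vertical, 2 and 4 libraries), with a dotted line where both are equal. Lama3 and Lamb1 lie below 0 on both axes, and Itga4 lies far to the left at -2.04 with 0.17 on the vertical axis.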

How the data were processed

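RNA-seq was done on 16 libraries. The authors deposited raw counts per gene symbol, 1 column per library. The aligner STAR 2.6.0a, the counter HTSeq 0.11.1 and GRCm38 are named per the submitters' processing notes, and neither a strand setting nor an annotation release was found in these sources, so reads of overlapping genes may be divided wrongly. The labels number the libraries as biological replicates without naming separate mice, so p-values measure the spread between libraries. No 2 libraries of a diet agreed within sampling noise (chi-square per degree of freedom 8.20 to 141, 57 pairs).

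Counts were compared with edgeR 4.0.16 (R 4.3.3), with trimmed-mean scaling, filterByExpr, name form and diet in a robust quasi-likelihood fit, and Benjamini-Hochberg adjustment over 14321 genes at 0.05. The script was tested on simulated counts. The SE of a log2 fold change is its size divided by the root of the F statistic. The fold changes are adjusted for name form, and CPM are not. Ratios used counts plus 0.5, and correlations 100000 permutations. Symbols were matched to GENCODE M21 (98.9%, all 51 members) for coordinates and exon length, and promoters come from RefSeq (GRCm38.p6), which gave windows for 40 members.

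The members and lists were chosen with earlier results of these data known, and 1 member is counted but not reported here by value. Per-library values were given for members past the threshold with an absolute log2 fold change of at least 0.5 and a mean of at least 1 CPM in a diet, and for 12 set chains. Other members were given by family, up to 6 by lowest p, and up to 4 genes per list by lowest p. Alternatives were limma 3.58.1 voom, DESeq2 1.42.0, other scalings, filters, thresholds and subsets, marker scores as covariates, removal of the exon length trend (loess, span 0.3), and a replicate block. The fit without fish oil/pectin libraries 6 and 7, the sex covariate, the ratios, the correlations and the joint fit by name form were added after seeing the data.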

Additional observations from a re-analysis of the deposited data

Results flagged for a closer look

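Of 66 groups of libraries examined, 5 held a library far from the rest, where chance gives about 1 in 20. Col16a1 was low in fish oil/pectin library 7, at 19.5 CPM. Corn oil/cellulose library 7 was high in Itga3, at 260 CPM, and in Lama5, at 31.5 CPM. T and NK cell markers summed to 53.3 CPM in fish oil/pectin library 7, the highest of that diet. B and plasma cell markers summed to 1.60 CPM in corn oil/cellulose library 8. The diet effect on Itga4 differed between GC-named and other libraries by -2.21 on the log2 scale (edgeR interaction, adjusted p = 0.0329).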

How the results depend on the processing

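The count of members called lower with fish oil/pectin was 10, and 8 to 14 when 1 library was left out, beside 16.9% to 20.4% of all genes lower. It was 5 with a replicate block, 2 in a fit to the 6 libraries that lack the GC prefix, 4 with the leukocyte score, 5 with the stromal score and 6 with the exon length trend removed, and 8 to 15 in every other setting run. All genes called came to 24.4%, 6.36%, 7.19%, 16.2% and 33.1% in those 5 settings in turn. Genes called lower came to 10.8%, 2.02%, 2.44%, 7.95% and 12.2% in the same order. In the other settings 9.01% to 26.4% of all genes were lower, with no share given for the changed thresholds. The count called higher was 1, and 0 to 1 when 1 library was left out, beside 18.6% to 22% of all genes higher. It was 0 without the name form term, in either name form alone, with DESeq2 size factors, with total counts, without a filter, at 1 CPM or more in 7 libraries, with either marker score, at a threshold of 0.01, with the sex covariate, and without fish oil/pectin libraries 6 and 7. In those settings, other than the threshold of 0.01, 4.34% to 22.9% of all genes were higher. The count called higher was 2 with the length trend removed, beside 20.8% of all genes, and 2 at a threshold of 0.1.

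Reversed values were -0.015 for Lama5 and 0.032 for Lamb3 in GC-named libraries alone. In the others alone they were 0.069 for Itga2, 0.18 for Itga4, 0.12 for Itga6 and 0.056 for Lamc1. With the leukocyte score they were 0.069 for Itga2 and -0.23 for Lama5, with the stromal score -0.16 for Lama5, and with the length trend removed 0.00025 for Lamb3. With 1 library left out, Lama5 ranged from -0.015 (without corn oil/cellulose library 5) to 0.32. The cause was not tested. The replicate numbers did not pair libraries (correlations of deviations -0.06 to 0.53, and 1 of 7 numbers correlated best within itself). The replicate block left 1 higher and 5 lower, so this is a value of the fit and no pairing by design. Members with 10 to 98 counts rest on few reads per library, which limits the precision of their values.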
